A study of Mus musculus with 11 samples.

Results

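The 9 genes described here encode liver enzymes that break amino acids down: Hal, Uroc1, Amdhd1 and Ftcd of histidine degradation, the glutaminase gene Gls2, the glycine methyltransferase gene Gnmt, the serine dehydratase gene Sds, and Tat and Hpd of tyrosine degradation. They were taken by gene symbol, as 9 rows of a table of 43346 genes. All 9 were present, and all 9 passed the filter on low counts, with between 741 and 97481 reads in each library. The libraries are bulk RNA sequencing of livers of FVB/NJ mice with hepatocellular carcinoma, induced with MET, the hepatocyte growth factor receptor, and β-catenin, which carries Wnt signals to the nucleus. Every mouse is labelled as treated with anti-PD-1, an antibody that blocks a brake on T cells. By response, 6 libraries came from responders, 4 from non-responders and 1 from an animal whose response label gives no treatment. That library is called untreated below after its response label, although its treatment label names the antibody. The sources used here do not give age, sex, sampling time or how response was judged. Nor do the labels say whether a library holds tumour, surrounding liver or both, or whether each library is its own mouse, so the spread that p-values rest on is that among these libraries and may be technical.

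In liver, blood enters at the portal tract and leaves by the central vein, and hepatocytes along that path differ. Periportal hepatocytes take up amino acids, feed their nitrogen into urea and their carbon into glucose, while perivenous hepatocytes make glutamine from the ammonia that remains. In mouse liver, Wnt and β-catenin signalling is known to maintain the perivenous gene programme and to restrain the periportal one. Bulk libraries give no position, so the periportal assignment of the 9 genes is background, and fewer cells of a type cannot be told apart from less RNA per cell.

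The libraries held 17876515 to 40565708 gene counts in responders, 25542066 to 39941835 in non-responders and 49884800 in the untreated library. Responder replicates 4 and 6 stood apart from the other responders. Afp and Gpc3, fetal liver genes that mark hepatocellular carcinoma, stood at 121.6 and 86.3 CPM (read counts scaled to library size) in responder replicate 4 and at 99.8 and 119.9 CPM in replicate 6, whereas the other 4 responders had at most 2.28 CPM of Afp and 0.564 CPM of Gpc3. Non-responders had 116.4 to 381 CPM of Afp, and the untreated library had 1.70 CPM. A log2 index of read density on exon 12 of Ctnnb1 and exon 17 of Met, relative to the other exons of those genes, followed the same split. It was 1.36 and 1.57 in responder replicates 4 and 6 and 0.350 to 0.583 in the other responders, against 1.52 to 2.53 in non-responders, and it was 0.488 in the untreated library. Non-responder replicate 1 had 3′-weighted coverage, with a log2 coverage index of 1.44, while the other 10 libraries lay between -0.0701 and 0.172. Pan-hepatocyte genes were abundant in every library: 7 measured genes such as Alb summed to 69323 to 85998 CPM in responders and to 104120 to 141200 CPM in non-responders. Directions within these 7 were mixed. By the test described below 2 of them, Apoa1 and Ahsg, were lower in responders, 0 were higher and 5 did not pass. Among those 5, Ttr, Apoh and Serpinc1 had positive log2 fold changes (0.805, 0.454 and 0.331), and Alb and Apoc3 negative ones (-0.597 and -0.513).

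All 9 genes had a higher mean in livers of responders than in livers of non-responders, and 7 of them, Hal, Uroc1, Amdhd1, Ftcd, Gls2, Gnmt and Tat, passed edgeR's quasi-likelihood test at an adjusted p under 0.05. Over all 17610 genes tested, 4.11% were higher in responders by that test and 5.82% were lower, and none of the 9 was lower. At an unadjusted p under 0.05, 9 of the 9 were higher and 0 lower by edgeR, where 12.3% of all genes were higher, and DESeq2 called 9 higher and 0 lower, where it called 7.94% of the genes with an adjusted p higher. Sds and Hpd did not pass. The log2 fold changes (log2 changes from here on) of the 9 ran from 0.67 for Ftcd to 1.81 for Hal, with a median of 1.27, against a median of -0.02 over all genes tested. In 6 of the 9 genes every responder lay above every non-responder, a pattern that 5.60% of all tested genes showed. The count of calls depended on single libraries, and the size of the changes less so. Without non-responder replicate 2 none of the 9 passed (8 at an unadjusted p under 0.05), and 4, 3 and 2 of them passed when responder replicate 1, 2 or 5 was the one left out, although all 9 kept a positive sign in each of these fits. The median log2 change of the 9 was 1.26 without non-responder replicate 2, and between 1.21 and 1.45 over the 10 fits that left out 1 library.

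**Figure D1:**
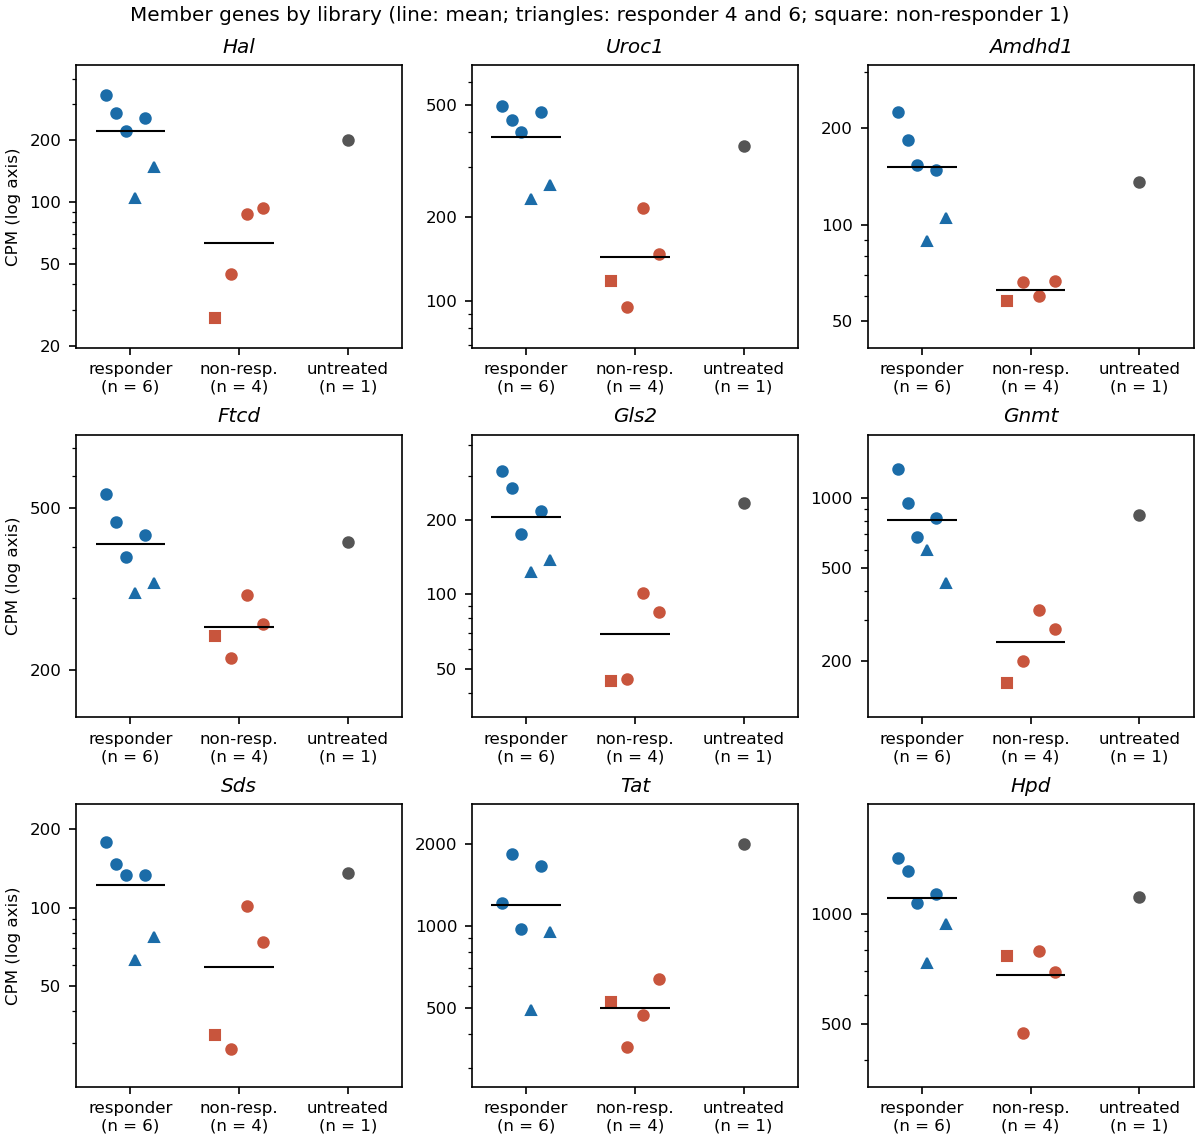
Each panel plots 1 gene, with CPM on a logarithmic vertical axis and the 6 responder, 4 non-responder and 1 untreated libraries along the horizontal axis; horizontal lines are group means, triangles are responder replicates 4 and 6 and squares non-responder replicate 1. The triangles are the lowest responders in every panel, and in Hal, Uroc1, Amdhd1, Ftcd, Gls2 and Gnmt they still lie above all non-responders.

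Histidine is degraded to glutamate in 4 steps, and each of the 4 genes was higher in responders. Hal (ENSMUSG00000020017, mm10 chromosome 10, 93488768 to 93519304, plus strand) encodes histidine ammonia-lyase, which removes ammonia from histidine in the first and committed step. It stood at 332, 271, 221, 104, 258 and 148 CPM in responder replicates 1 to 6, and at 27.4, 44.9, 87.9 and 93.2 CPM in non-responder replicates 1 to 4. The groups did not overlap, and the gap between the lowest responder and the highest non-responder was small beside the spread within either group. The means were 222 ± 83.7 CPM in responders and 63.3 ± 32.3 CPM in non-responders (n = 6 and n = 4, SD), for a log2 change of 1.81 ± 0.40 SE (adjusted p by edgeR 0.0239). Hal passed in 6 of 10 fits that left out 1 library each, and lost its call when responder replicate 1, 2 or 5 or non-responder replicate 2 was left out (edgeR adjusted p up to 0.0806).

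Uroc1 (ENSMUSG00000034456, chromosome 6, 90333289 to 90364551) encodes urocanate hydratase, the enzyme of the second step. Its lowest, median and highest responders were at 231, 420.4 and 493.1 CPM, and the non-responders at 118, 95.6, 215 and 147 CPM. The groups did not overlap, with responder replicate 4 just above non-responder replicate 3. The log2 change was 1.41 ± 0.28 SE (adjusted p by edgeR 0.0191), and it missed the threshold without responder replicate 5 (0.0502) and without non-responder replicate 2 (0.0668). Amdhd1 (ENSMUSG00000015890, chromosome 10, 93523338 to 93540033, minus strand) encodes imidazolonepropionase, the third enzyme, and lies 4034 bases from Hal, the 3′ ends of both genes facing each other. Responders had 89.1, 151 and 224 CPM as lowest, median and highest value, and non-responders 58.0, 66.3, 60.1 and 66.7 CPM. The 4 non-responders were within a narrow band, with a coefficient of variation of 7.03%, against 33.0% in responders. Its log2 change of 1.27 ± 0.23 SE (adjusted p by edgeR 0.0167) passed in 9 of the 10 leave-one-out fits, the exception being non-responder replicate 2 (0.0583).

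Ftcd (ENSMUSG00000001155, chromosome 10, 76575648 to 76590338) encodes formimidoyltransferase cyclodeaminase, which passes the carbon of the last intermediate to tetrahydrofolate. It had 308, 405 and 540.02 CPM as lowest, median and highest responder, and 243, 214, 305 and 260 CPM in non-responders, so that responder replicate 4 stood barely above non-responder replicate 3. The log2 change of 0.67 ± 0.18 SE (adjusted p by edgeR 0.0392) was the smallest of the 9 and passed in 3 of the 10 leave-one-out fits, namely those lacking responder replicate 4, responder replicate 6 or non-responder replicate 3. The largest adjusted p was 0.114, without non-responder replicate 2. Per unit length (RPKM, reads scaled to gene length and library size), the 4 histidine genes summed to 156 to 277 in responders and to 93.8 to 133 in non-responders, with no overlap. The sums were not tested, and no share over all genes is given for them. The order within the pathway was the same in the means of both groups, with Ftcd highest (85.6 ± 14.5 RPKM, n = 6, in responders and 56.8 ± 6.45, n = 4, in non-responders; SD), then Uroc1, Amdhd1 and Hal lowest (26.8 ± 9.08 and 7.98 ± 3.79 RPKM). The ratio of each earlier step to the last had a lower mean in non-responders. The ratio of Hal to Ftcd in RPKM was 0.305 ± 0.0632 in responders and 0.139 ± 0.0609 in non-responders (n = 6 and n = 4, SD), and that of Uroc1 to Ftcd was 0.854 ± 0.127 and 0.508 ± 0.105, and that of Amdhd1 to Ftcd 0.478 ± 0.0680 and 0.330 ± 0.0613. These ratios were not tested. The lowest Hal ratio, 0.0647, was in the 3′-weighted non-responder replicate 1, and non-responder replicates 2 to 4 had 0.120, 0.166 and 0.207. In replicate 1 of the non-responders the later exons held 4.75 times the reads of the earlier ones in Hal and 2.64 times in Ftcd. The part of coverage in the ratios was not tested. The Hal ratios of the groups overlapped (lowest responder 0.195, highest non-responder 0.207), as did the Amdhd1 ratios (0.381 and 0.408), and the Uroc1 ratios did not (0.689 and 0.650).

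The promoters that the RefSeq table holds for 7 of the 9 (none for Gls2 and Sds) were searched for 7 short motifs on both strands, over the 250 bases before the start, in build GRCm38.p6. The 4 promoters shown, those of Hal, Amdhd1, Ftcd and Gnmt, are the ones with a match, and the windows of Uroc1, Tat and Hpd held none. Each runs 5′ to 3′ on the gene's own strand and ends at the base before the start, and capitals mark matches to any of CTTTGAT (TCF/LEF), TTGCNNAA (C/EBP), GTTAAT (part of the HNF1 site) or TATAA (TATA box); the reference is not of the FVB/NJ strain.
Hal, chr10:93488518-93488767, plus strand: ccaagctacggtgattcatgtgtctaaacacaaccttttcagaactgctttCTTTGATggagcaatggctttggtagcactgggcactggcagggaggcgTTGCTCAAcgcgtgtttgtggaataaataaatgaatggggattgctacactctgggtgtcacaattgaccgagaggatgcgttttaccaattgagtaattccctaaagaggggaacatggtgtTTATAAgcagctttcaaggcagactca
Amdhd1, chr10:93540034-93540283, minus strand: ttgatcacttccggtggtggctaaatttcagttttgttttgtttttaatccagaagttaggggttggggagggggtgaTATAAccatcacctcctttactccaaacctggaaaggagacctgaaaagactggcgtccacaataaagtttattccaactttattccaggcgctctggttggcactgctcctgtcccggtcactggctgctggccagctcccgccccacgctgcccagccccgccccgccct
Ftcd, chr10:76575398-76575647, plus strand: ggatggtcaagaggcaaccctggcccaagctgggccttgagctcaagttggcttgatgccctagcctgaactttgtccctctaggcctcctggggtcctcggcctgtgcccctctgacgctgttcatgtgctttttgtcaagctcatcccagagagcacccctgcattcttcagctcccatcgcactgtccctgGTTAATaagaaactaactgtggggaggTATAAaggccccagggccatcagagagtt
Gnmt, chr17:46729166-46729415, minus strand: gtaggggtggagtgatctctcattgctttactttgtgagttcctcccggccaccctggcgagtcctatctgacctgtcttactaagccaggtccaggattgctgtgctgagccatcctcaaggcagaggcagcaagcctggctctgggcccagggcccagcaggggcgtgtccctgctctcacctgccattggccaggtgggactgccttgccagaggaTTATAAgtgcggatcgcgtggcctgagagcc

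TATAA was in 4 of the 7 windows, those of Hal, Amdhd1, Ftcd and Gnmt, and in 22.78% of the 32851 promoter windows of the table. In Hal, Ftcd and Gnmt it lay 22 to 31 bases before the start, and in Amdhd1 172 to 168 bases before it. In Hal and Gnmt the run TTATAA holds overlapping matches on both strands. CTTTGAT and TTGCNNAA were each in the Hal window alone among the 7, and in 3.21% and 9.56% of all windows. GTTAAT was in the Ftcd window and in 6.43% of all windows. CAAAGTCCA (HNF4), TGACGT (part of the CREB site) and TGTTCT (part of the glucocorticoid receptor site) were in none of the 7, and in 0.38%, 6.47% and 16.08% of all windows. A match describes letters in this window, and says nothing of binding.

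Gls2 (ENSMUSG00000044005, chromosome 10, 128194457 to 128210004) encodes the liver-type mitochondrial glutaminase, which splits glutamine into glutamate and the ammonia used for urea. It had 123, 196 and 315 CPM as lowest, median and highest responder, against 44.7, 45.6, 102 and 85.3 CPM in non-responders. The groups did not overlap. The means were 206 ± 75.4 CPM in responders and 69.3 ± 28.7 CPM in non-responders (n = 6 and n = 4, SD), for a log2 change of 1.57 ± 0.33 SE (adjusted p by edgeR 0.0212). Gls2 lost its call when responder replicate 2 or 5 or non-responder replicate 2 was left out (edgeR adjusted p up to 0.0730). Of its exon bases 97 (2.79%) overlap Spryd4.

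Gnmt (ENSMUSG00000002769, chromosome 17, 46725664 to 46729168) encodes glycine N-methyltransferase, which uses S-adenosylmethionine to turn glycine into sarcosine and so sets the supply of methyl groups in hepatocytes. It was the most abundant of the 9 per unit length in responders, at 444 ± 147 RPKM (SD, n = 6), and came after Hpd and Tat in non-responders, at 140 ± 36.9 RPKM (SD, n = 4). In CPM its lowest, median and highest responders were at 432, 752 and 1340.3, and the non-responders at 160, 199, 329 and 273. The groups did not overlap, and Gnmt was the sole gene of the 9 in which the lowest responder was replicate 6. The log2 change was 1.74 ± 0.32 SE (adjusted p by edgeR 0.0165), and it missed the threshold in 1 of the 10 fits, without non-responder replicate 2 (0.0633).

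Sds (ENSMUSG00000029597, chromosome 5, 120476531 to 120483932) encodes serine dehydratase, which turns serine into pyruvate and ammonia. Its lowest, median and highest responders were at 62.6, 134 and 179 CPM, and non-responders were at 32.3, 28.6, 102 and 73.6 CPM. The groups overlapped, since non-responder replicate 3 lay above responder replicates 4 and 6. The log2 change of 1.05 ± 0.40 SE missed the threshold (adjusted p by edgeR 0.120), and passed without non-responder replicate 3 (1.45, 0.0458). The last exon of Sds overlaps Plbd2, a gene of similar abundance, over 360 bases, so reads there are uncertain. Gm15690 also overlaps exon bases of Sds, over 141 bases. Which exons these lie in is not given, so the other exons may not be free of overlap. Counted over its other 7 exons, Sds had 1.04 and an edgeR adjusted p of 0.144. Sdsl, the gene of a related serine dehydratase, was higher in responders at a far lower level, 8.16 ± 1.43 CPM (SD, n = 6) against 4.77 ± 0.94 CPM (SD, n = 4), with a log2 change of 0.78 ± 0.18 SE (adjusted p by edgeR 0.0249).

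Tat (ENSMUSG00000001670, chromosome 8, 109990437 to 109999803) encodes tyrosine aminotransferase, the first enzyme of tyrosine degradation and a classic target of glucocorticoids and glucagon. Responders had 1214, 1829.5, 976, 491, 1658 and 946 CPM in replicates 1 to 6, and non-responders 525.8, 358, 469.99 and 634 CPM in replicates 1 to 4. Responder replicate 4 lay inside the range of non-responders, and the other 5 responders lay above it. The log2 change of 1.25 ± 0.33 SE (adjusted p by edgeR 0.0367) passed in 3 of the 10 leave-one-out fits, namely those lacking responder replicate 4, responder replicate 6 or non-responder replicate 4, and the adjusted p reached 0.113 without non-responder replicate 2. Hpd (ENSMUSG00000029445, chromosome 5, 123171807 to 123182725) encodes 4-hydroxyphenylpyruvate dioxygenase, the next enzyme. It had 737, 1103.5 and 1427 CPM as lowest, median and highest responder and 769, 472, 794 and 694 CPM in non-responders, with responder replicate 4 below 2 of the 4 non-responders. Its log2 change of 0.69 ± 0.22 SE missed the threshold (adjusted p by edgeR 0.0618), and passed without responder replicate 4 (0.79, 0.0337). Of 5 other genes of phenylalanine and tyrosine breakdown 1 was higher in responders, Qdpr, which regenerates the cofactor tetrahydrobiopterin (0.97 ± 0.22 SE, adjusted p by edgeR 0.0239).

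**Figure D2:**
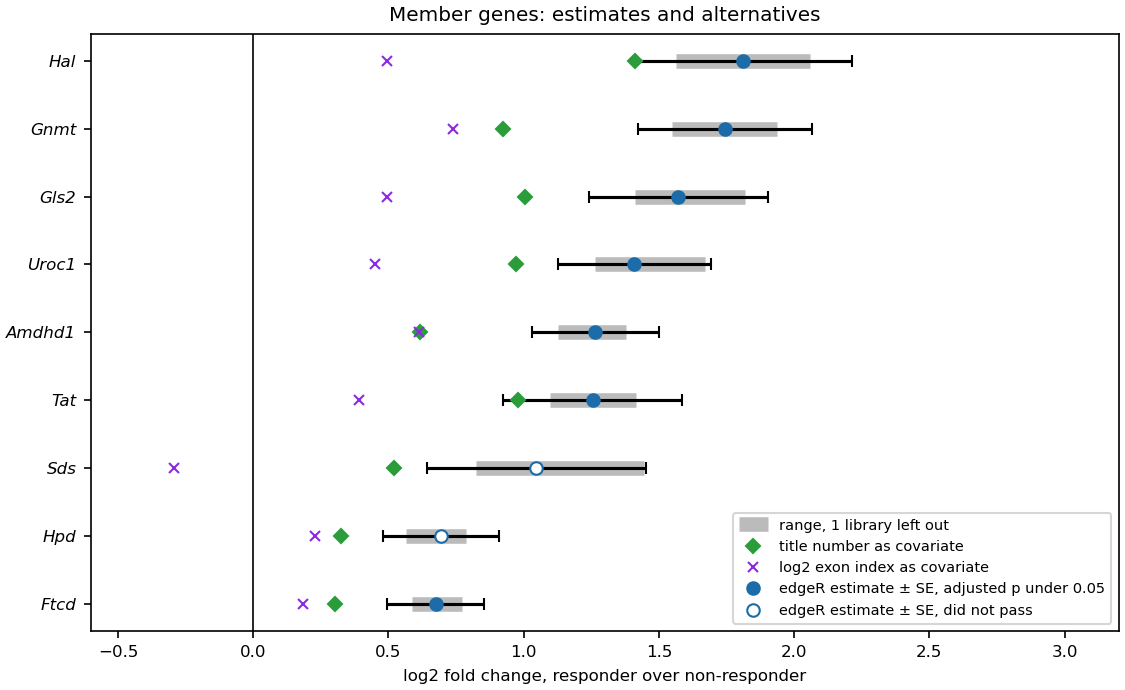
The plot gives the log2 change of responders over non-responders for each of the 9 genes as a point with its SE, filled where the adjusted p was under 0.05; grey bars span the 10 fits that left out 1 library, diamonds are fits with the title number as a covariate and crosses fits with the log2 exon index. Points run from 0.67 for Ftcd to 1.81 for Hal, and with either covariate every value is smaller, that of Sds being -0.29 with the exon index.

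Covariates that move with the response labels ended the calls. With the log2 exon index in the model 0 of the 9 genes passed edgeR's test (1 at an unadjusted p under 0.05), with log2 changes between -0.29 for Sds and 0.74 for Gnmt, and 0 of all 17610 genes passed (1071 at an unadjusted p under 0.05). With the number in the sample title, which runs 1, 3, 9, 13, 16 and 29 in responders and 26, 30, 32 and 37 in non-responders, 0 of the 9 passed (1 at an unadjusted p under 0.05), with log2 changes between 0.30 and 1.41, and 1 gene of all passed (1857 at an unadjusted p under 0.05). The sources used here do not say what the title number stands for, so no batch could be formed from it, and its part and that of the index in the differences cannot be told apart from the response label. These covariates were run with edgeR alone.

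The levels varied together within the responder group. In all 9 genes responder replicates 4 and 6 were the 2 lowest of the 6 responders, a pattern that 15.7% of all tested genes showed. In 8 of the 9 replicate 1 was highest, the exception being Tat, highest in replicate 2. The share of all tested genes with replicate 1 highest is not given, so that count is description only. The summed CPM of the 9 was 6065, 5869, 4194, 2747.5, 5273 and 3372 in responder replicates 1 to 6, and 1979, 1524, 2465 and 2326 in non-responder replicates 1 to 4. Replicates 4 and 6 are the responders with Afp and Gpc3 near the non-responder level, and the part of that difference in the levels of the 9 genes was not tested. Without responder replicate 4 and without replicate 6, 8 and 7 of the 9 genes passed.

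The untreated library was above every non-responder in all 9 genes, as in 25.7% of all tested genes, and inside the range of the responders in 8. For the latter count the share over all tested genes is not given. Tat was the exception, at 1995 CPM, above each of the 10 treated libraries. Hal stood at 200.2 CPM in the untreated library, with 4 responders above it, and Gnmt at 845 CPM, with 2 responders above it. With 1 library there is no test.

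By group means, the difference ran along the whole length of the transcripts. In 1 transcript for each gene, 119 exons in all, the mean CPM of responders was higher than that of non-responders in 119. The groups did not overlap in 62 of these exons, among them 14 of 20 in Hal, 18 of 18 in Gls2 and 6 of 6 in Gnmt, and in none of Sds, Tat and Hpd. Exons of 1 gene share their libraries, are not replicates and largely restate the result of their gene. The share of non-overlapping exons over all genes is not given. Among all tested genes, 5.60% showed no overlap with responders higher. In the 3′-weighted non-responder replicate 1, the later exons of Hal held 4.75 times the reads of the earlier ones, against 1.60 to 2.01 times in the other libraries. Without that library the log2 ratio of group means in Hal was 1.60 over the earlier exons and 1.54 over the later ones, and with it 1.94 and 1.77. In Hpd this ratio fell from 0.89 in exon 1 to 0.39 in exon 14, and was 0.67 and 0.79 without that library. In Tat it fell from 1.47 in exon 1 to 1.01 in exon 12, and was 1.19 and 1.30 without that library. In edgeR's test without non-responder replicate 1, 5 of the 9 genes passed, Ftcd and Tat being lost (adjusted p = 0.0590 and 0.0626).

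**Figure D3:**
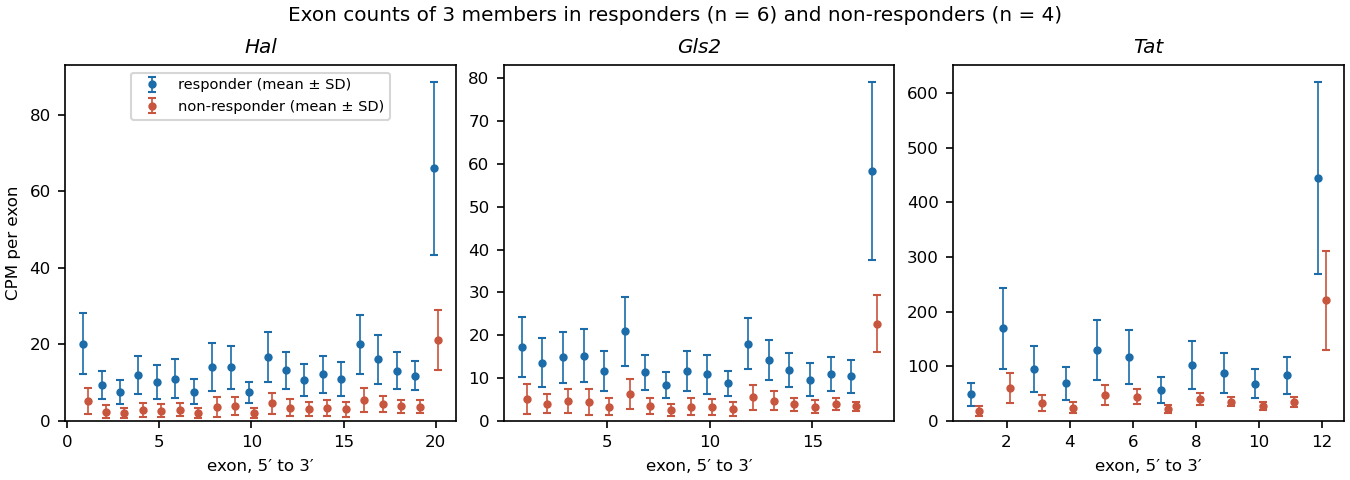
For Hal, Gls2 and Tat the panels plot CPM per exon in 1 transcript, from the 5′ to the 3′ end, as means ± SD over 6 responders and 4 non-responders; exons differ in length, and the last is the longest. Responder means lie above non-responder means in all 20, 18 and 12 exons.

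The wider amino acid pathways showed the same direction. Of 85 other genes of amino acid and one-carbon breakdown 83 were tested, and 32 of these were higher in responders, 0 lower and 51 did not pass (57 higher and 1 lower at an unadjusted p under 0.05; 45 higher and 0 lower by DESeq2). Over all genes, 4.11% were higher by edgeR's adjusted p, 12.3% by its unadjusted p and 7.94% by DESeq2. Their median log2 change was 0.53, and 74 of the 83 were positive, where 48.1% of all tested genes were. Without non-responder replicate 2 none of the 83 passed (48 higher at an unadjusted p under 0.05), and 5, 4 and 4 did when responder replicate 1, 2 or 5 was the one left out.

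In serine, threonine and glycine breakdown 6 of 13 tested genes were higher. Gldc, the decarboxylase of the glycine cleavage system, stood at 111 ± 41.2 CPM in responders and 29.96 ± 17.2 CPM in non-responders (n = 6 and n = 4, SD), for a log2 change of 1.88 ± 0.44 SE (adjusted p by edgeR 0.0287). Dmgdh and Sardh, which strip methyl groups from dimethylglycine and from the sarcosine that the Gnmt enzyme makes, had log2 changes of 1.24 and 1.19, and the serine racemase gene Srr had 0.90. Agxt, an aminotransferase that uses alanine and glyoxylate, had 0.73 ± 0.23 SE and missed the threshold (adjusted p by edgeR 0.0649). In methionine and cysteine metabolism 5 of 11 were higher. Mat1a, which makes the S-adenosylmethionine that Gnmt consumes, had 0.59 ± 0.16 SE (adjusted p by edgeR 0.0400), and Ahcy, which clears the S-adenosylhomocysteine left behind, had 1.05. Csad, an enzyme of taurine synthesis, had 1.54, Bhmt2 0.77 and Cbs 0.54, while Cth, the last enzyme of cysteine formation, had 0.71 ± 0.21 SE and missed the threshold (adjusted p by edgeR 0.0555).

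Of 7 folate genes 2 were higher. Aldh1l1, which oxidises formyltetrahydrofolate, stood at 896 ± 317 CPM in responders and 410.5 ± 79.0 CPM in non-responders (n = 6 and n = 4, SD), for a log2 change of 1.13, and Mthfd1 had 0.68. Of 9 tryptophan genes 5 were higher: Ido2 (1.45), Kynu (1.18), Haao (0.89), Acmsd (0.80) and Afmid (0.79). Tdo2, the first enzyme of that path in liver, had 1.09 ± 0.48 SE and missed the threshold (adjusted p by edgeR 0.167). Of 9 glutamine, glutamate, alanine and aspartate genes 3 were higher, namely Aspg, an asparaginase gene, at 2.06, and Abat and Aldh5a1, which break down γ-aminobutyrate, at 1.43 and 0.93. Glud1, the glutamate dehydrogenase gene, had -0.33 ± 0.17 SE and missed the threshold (adjusted p by edgeR 0.248). Arg1, the arginase of the urea cycle, had 1.51 and, with Hoga1 (0.78) and Aldh4a1 (0.76), was among 3 of 6 arginine, ornithine and proline genes that were higher, while Prodh had 0.02 ± 0.18 SE (adjusted p by edgeR 0.970). In lysine breakdown 3 of 5 were higher, the first enzyme Aass at 1.18, Gcdh at 1.07 and Aldh7a1 at 0.71. In branched-chain breakdown 4 of 18 were higher, Hibadh at 0.99, Ivd at 0.79, Pccb at 0.74 and Mccc2 at 0.73, while Bckdha, a subunit of the first committed enzyme complex, had 0.32 ± 0.14 SE and missed the threshold (adjusted p by edgeR 0.166).

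Genes of amino acid synthesis, counted apart with the mitochondrial folate gene Mthfd2, lay on the other side. Of these 7 genes 5 were lower in responders by edgeR, 0 were higher and 2 did not pass (7 lower and 0 higher at an unadjusted p under 0.05, and 6 lower and 0 higher by DESeq2). Over all 17610 genes tested by edgeR, 5.82% were lower. At an unadjusted p under 0.05 by edgeR 4803 of them passed, of which 2172 were higher. DESeq2 called 1661 genes lower, among 17583 with an adjusted p. Asns, the asparagine synthetase gene, stood at 2.61 ± 2.20 CPM in responders and 24.3 ± 21.8 CPM in non-responders (n = 6 and n = 4, SD), for a log2 change of -3.24 ± 0.78 SE (adjusted p by edgeR 0.0318). Aldh18a1 and Pycr1 of proline synthesis had -1.83 and -1.54, Mthfd2 -1.73 and Psph of serine synthesis -1.29. Phgdh and Psat1, the other serine synthesis genes, had -2.82 ± 1.21 and -2.63 ± 0.92 SE and missed the threshold (adjusted p by edgeR 0.164 and 0.0952). All 7 together summed to 13.1 to 63.3 CPM in responders and 67.6 to 255 CPM in non-responders, far below the breakdown genes. Without non-responder replicate 2 none of the 7 passed, 1 passed when responder replicate 1, 2 or 5 was left out, and 2 passed without responder replicate 3 or non-responder replicate 1.

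**Figure D4:**
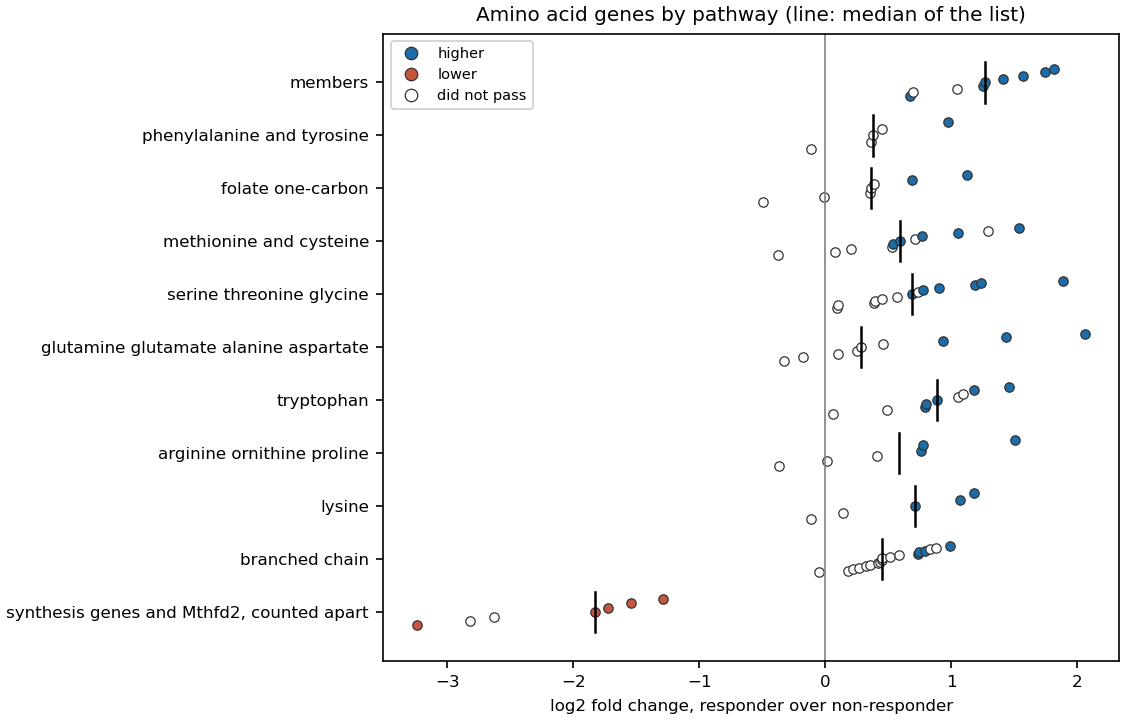
Each point is a tested gene, placed by its log2 change of responders over non-responders and by pathway; filled points passed as higher or lower at an adjusted p under 0.05, open points did not, and a vertical line marks the median of each list. The 9 genes described here have a median of 1.27, and the medians of the 9 other breakdown lists lie between 0.28 and 0.89, while the 7 genes counted apart lie to the left of 0.

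Of 16 tested amino acid transporter genes 3 were higher and 5 lower in responders. Slc3a1, a subunit of a cystine and basic amino acid carrier, had a log2 change of 1.57, whereas the neutral amino acid carriers Slc1a4 and Slc1a5 had -2.37 and -1.36, Slc43a1, a carrier of large neutral amino acids, had -1.56 and the glycine carrier Slc6a9 had -1.39. Of 15 hormone receptors and transcription regulators known to act on these pathways or to report on glucocorticoids 1 was higher, Cebpa (0.95 ± 0.27 SE, adjusted p by edgeR 0.0470), which encodes the transcription factor C/EBPα. The glucocorticoid-induced gene Tsc22d3 was lower (-1.03 ± 0.28 SE, adjusted p by edgeR 0.0419). The glucagon receptor gene Gcgr, the glucocorticoid receptor gene Nr3c1 and Hnf4a had 0.13, 0.21 and -0.08, and did not pass (adjusted p by edgeR 0.673, 0.617 and 0.719).

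Of 12 other periportal markers 6 were higher in responders, 1 was lower and 5 did not pass, with a median log2 change of 1.18 and a summed level of 4172 to 11327 CPM in responders and 2053 to 5249 CPM in non-responders. Pigr, the receptor that carries IgA into bile, had 1.76, and the urea cycle genes Cps1 and Ass1 had 1.59 and 1.55. Cdh1, also a periportal marker, was lower, at 55.6 ± 27.3 CPM in responders and 138 ± 36.99 CPM in non-responders (n = 6 and n = 4, SD). Of 12 perivenous markers 3 were lower (Lgr5, Rhbg and Slc13a3) by edgeR, 0 were higher and 9 did not pass (6 lower and 0 higher at an unadjusted p under 0.05, and 5 lower and 0 higher by DESeq2). Their median log2 change was -0.89, and 2 of the 12 were positive. They summed to 8426 to 11910.0 CPM in responders and 4587 to 14044 CPM in non-responders, so the ranges overlapped. Much of that sum was Cyp2e1, at 6687.5 ± 412 CPM in responders and 4921.9 ± 2774 CPM in non-responders (n = 6 and n = 4, SD). Its log2 change of 0.44 did not pass (adjusted p by edgeR 0.402). Of 7 tested fetal liver and tumour genes 3 were lower, Akr1b7, Bex1 and Igf2, with a summed level of 2.33 to 243 CPM in responders and 369 to 906 CPM in non-responders. Markers of other cells were present at low levels. The 6 cholangiocyte markers (30.7 to 43.2 CPM summed in responders, 37.5 to 81.3 in non-responders), 7 macrophage markers (124 to 443 and 43.2 to 301), 7 T and NK cell markers (3.81 to 7.55 and 3.06 to 11.6) and 6 stellate cell markers (150.4 to 237 and 119 to 311) held no gene that passed edgeR's test. At an unadjusted p under 0.05, 2, 0, 0 and 5 of them did, and DESeq2 called 1, 0, 0 and 2. Of 6 endothelial markers 1, Lyve1, was lower and 5 did not pass. Their median log2 change was 0.29, and 4 of the 6 were positive. Of 5 erythroid markers 2, Hbb-bt and Slc4a1, were lower and 3 did not pass, and 1 of the 5 was positive. Of 4 pancreas and gut markers 2 were tested, Cela1 and Fabp2, and missed the threshold, and Prss1 was at 0 in all libraries. The part of these markers in the levels of the 9 genes was not tested.

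The genes whose pattern over the 11 libraries lay nearest to each of the 9 were sought among 11414 other genes, by the root mean square difference of centred log2 CPM, where 0 would be an identical pattern. Several were themselves amino acid genes. Gldc was nearest to Hal (0.181), Aldh1l1 to Amdhd1 (0.202), Gcat, of threonine breakdown, to Ftcd (0.0705) and Arg1 to Gls2 (0.161). Dhtkd1, which acts in lysine and tryptophan breakdown, was nearest to Uroc1 (0.157), followed by Ido2 (0.169). For Tat the nearest gene was at 0.292 (Slc25a51), for Sds at 0.214 (Fn3k), for Hpd at 0.0994 (Bphl) and for Gnmt at 0.253 (Acss2os). The second nearest were Ces1g for Hal, Kcnn2 for Amdhd1, Bphl for Ftcd, Sfxn1 for Gls2, Tmem63a for Gnmt, Abi3bp for Sds, Serpina1c for Tat and Tmem86b for Hpd, at 0.0952 to 0.317. Ces1g and Serpina1c belong to families of near-identical genes, so their counts are uncertain, as are those of Acss2os, named as an opposite-strand gene, since no strand setting is given. Among the 9 themselves, Ftcd and Hpd were the closest pair (0.132), then Gls2 and Gnmt (0.191), and Hal and Hpd were the farthest apart (0.747). The difference is not scaled to how much a gene varies, so genes that vary little come out close: the SD of log2 CPM over the 11 libraries was 0.40 for Ftcd and 0.45 for Hpd, but 0.92 for Gls2, 0.95 for Gnmt and 1.09 for Hal. Hal and its neighbour Amdhd1 were not close (0.546). Genes outside the 9 often lay closer to one of them than its nearest fellow among the 9. They numbered 81 for Amdhd1, 57 for Tat, 20 for Uroc1, 17 for Sds, 16 for Ftcd and 10 for Hal. For Gls2 and Hpd there were 4 each, and for Gnmt 0.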

How the data were processed

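Per the labels' protocols, TRIzol was used on liver, and the kit names given are Illumina Tru-Seq and, for indexing, NEBNext Small RNA. FastQC and the mm10 build are named in the submitters' processing notes, and the sources used here do not give the aligner, counter or strand setting. The authors deposited a raw count per gene, an RPKM value per gene and a raw count per exon, per the file headers. RPKM was used to compare levels between genes and for the sums and ratios of the histidine genes, which are given by group. RPKM values were not TMM-scaled. Members, lists and tests were chosen with earlier results of these data known. Named genes were all 9 members, the 2 nearest genes of each, and from each list the genes past the threshold (at most 5, by size of change) with its first enzyme; 2 genes of these lists are not reported here.

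Responders (6) and non-responders (4) were tested against each other by edgeR 4.0.16 under R 4.3.3 (TMM after filterByExpr, robust quasi-likelihood F test, Benjamini-Hochberg over 17610 genes, threshold 0.05), with an SE equal to the log2 fold change over the square root of F. All 11 libraries were TMM-scaled together for CPM, and log2 CPM used a prior count of 2. Groups follow the response label, and replicate numbers follow accession order. No 2 libraries of a group agreed within counting noise (at least 4.80 times the median chi-square of counting). The coverage index compares later with earlier exons, as the log2 ratio of their read densities, by its median in 1882 genes, set to 0 at the median of treated libraries. The precision of each value follows the read numbers given in the report, and covers counting error only. Alternatives were DESeq2 1.42.0, limma 3.58.1 (voom), other scalings and filters, exon sums, 3 covariates, the untreated library as its own group, and each library left out in turn; counting Sds without its last exon was chosen after seeing the data. In counts simulated for this comparison over 17610 genes, edgeR recovered 5 of the 67 genes with a 1.5-fold change, 30 of the 67 with a 2-fold one and 48 of the 66 with a 4-fold one, and called 1 of 17410 unchanged ones. Those counts were drawn independently for each gene and library. They hold no split shared across genes, such as that of responder replicates 4 and 6, so error and recovery in the real libraries may differ.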

Additional observations from a re-analysis of the deposited data

Results flagged for a closer look

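In 28 groups of values checked for 1 library standing far from the rest of its group, 2 did. Chance alone flags about 1 in 20 of such groups, so 2 in 28 is near that rate. Both concern the log2 3′ coverage index. Non-responder replicate 1 had 1.44, where the other 3 non-responders had -0.0074 to 0.0218. Responder replicate 6 had 0.172, where the other 5 responders had -0.0701 to 0.0195. No CPM value of the 9 genes stood apart in this way, in either group.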

How the results depend on the processing

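No paired analysis was possible because the labels give no replicate numbers that groups share. The count of members higher in responders was 7 with each scaling, each filter, exon sums, limma-voom and the untreated library in the model, 5 with the coverage index as a covariate (Ftcd and Tat lost), 8 with limma-voom quality weights and 9 with DESeq2. It was 0 with the title number and 0 with the log2 exon index, where Sds turned to -0.293. Leaving out 1 library gave 0 to 8 members higher and 0 lower. Other breakdown genes higher numbered 0 with either of those covariates and 0 to 35 with a library left out, and 1 was lower with quality weights (0 to 1 with a library left out). Over all genes, 1396 were higher and 1661 lower by DESeq2 and 1621 and 2021 with quality weights, against 723 and 1025 by edgeR. With the title number 0 were higher and 1 lower, and with the exon index 0 and 0. Leaving out 1 library gave 38 to 836 higher and 41 to 1158 lower, the fewest without non-responder replicate 2. The cause was not tested. Library size scaling shifted the median log2 fold change by -0.0217, and the other scalings by less. Each of the 9 genes had 741 reads or more in each library.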
